A study of Mus musculus with 36 samples.

Results

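Liver sinusoidal endothelial cells (LSECs), the fenestrated cells that line the blood channels of the liver, were compared with hepatocytes, the parenchymal cells behind them, by bulk RNA sequencing. All 4 LSEC libraries and all 4 hepatocyte libraries labelled WT were taken, 8 of the 36 libraries of the series. The mice were C57BL/6, and the series' design text places the WT libraries in mice that received PBS. The other libraries were hepatic stellate cells (HSCs) from the same condition, and all 3 cell types 12 h and 36 h after DT injection to deplete Kupffer cells (liver macrophages), each in 4 replicates. The labels give neither age, sex, genotype nor how the cells were purified, and do not say that each library came from 1 mouse, so p-values measure the spread between these libraries. The labels were checked with 2 marker genes, Stab2 for LSECs and Alb for hepatocytes.

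The hepatic sinusoid divides work between these cell types. Its endothelium lacks a continuous basement membrane, takes up waste macromolecules by scavenger receptors, presents antigen, and sends WNT and BMP ligands to the parenchyma. Hepatocytes make most plasma proteins, bile acids and urea, buffer blood glucose and clear drugs through cytochromes P450.

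The 8 libraries held between 27103264 and 30269160 counts assigned to genes. LSEC libraries had a count in 14207 to 14350 genes and hepatocyte libraries in 12717 to 13397. The 50 most abundant genes took 18.7% to 19.3% of the counts in LSECs and 32.5% to 35.4% in hepatocytes. No pair of libraries held identical values. The hepatocyte libraries fell into pairs: the nuclear RNA Malat1 stood at 508, 521, 49.7 and 37.5 CPM (counts per 1000000 of the TMM-scaled library size, the unit of every level below), against 696, 707, 464 and 810 CPM in the LSEC libraries. Summed over 14 Kupffer cell markers, the level was 25.8 and 46.3 CPM in hepatocyte replicates 1 and 2, 3.21 and 5.1 CPM in replicates 3 and 4, and 28.3 to 59.6 CPM in LSECs. Whether this split has a part in any difference was not tested beyond the fits given in the closing section.

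Of 13389 genes tested, 5721 (42.7%) were higher in LSECs and 4854 (36.3%) higher in hepatocytes at an adjusted p under 0.05 (edgeR quasi-likelihood test with Benjamini-Hochberg adjustment, 12 WT libraries). With at least a 4-fold difference as well, 2885 genes (21.5%) were higher in LSECs and 2441 (18.2%) in hepatocytes, and 1405 and 1306 genes passed 32-fold. The lowest library of 1 cell type stood above the highest of the other for 9857 genes (73.6%). A call is therefore the usual state of a gene here, and the gene groups below are read against these shares. The split depended on scaling: without composition scaling the median log2 difference moved by 0.82 towards LSECs, and 7989 genes were higher in LSECs and 3174 in hepatocytes, so that LSECs held 71.6% of the calls in place of 54.1%. Fold differences below are relative to the TMM scaling, and those of under about 1 log2 unit towards hepatocytes can change direction without it.

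**Figure D1:**
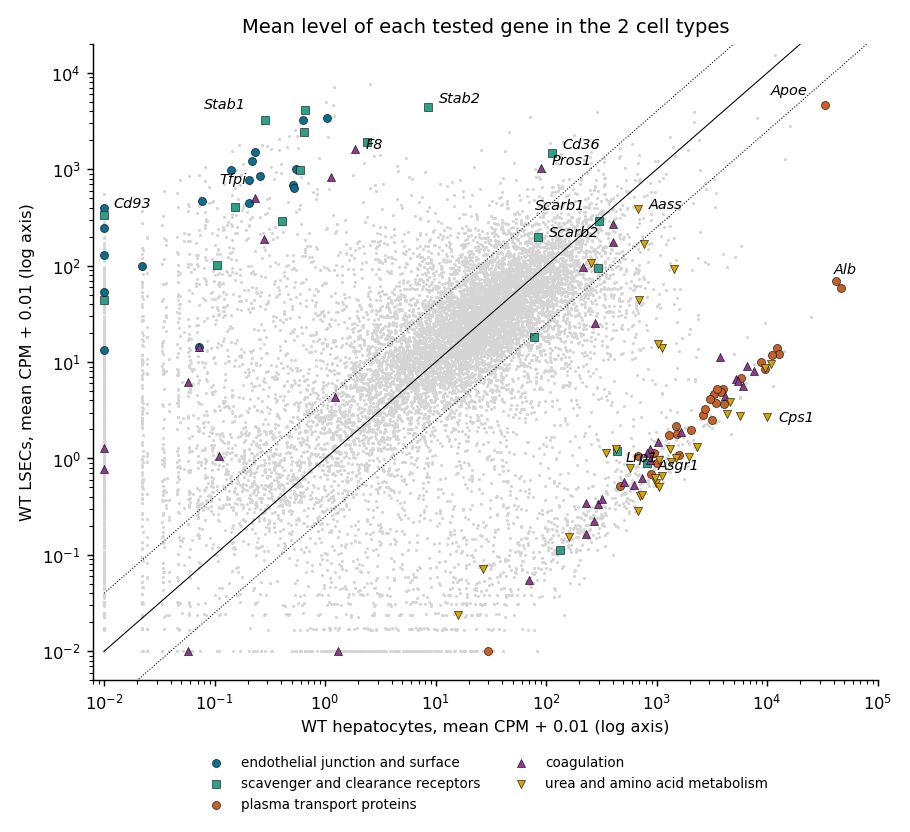
Mean level of each tested gene in WT hepatocytes (horizontal, CPM plus 0.01, log axis) against WT LSECs (vertical, same scale). Grey points are the 13389 tested genes, coloured points the members of 5 gene groups, the solid line marks equal levels and the dotted lines a 4-fold difference; Stab2 lies at 4445 CPM in LSECs and Alb at 46512 CPM in hepatocytes, while Scarb1 lies near the line of equal levels.

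**Figure D2:**
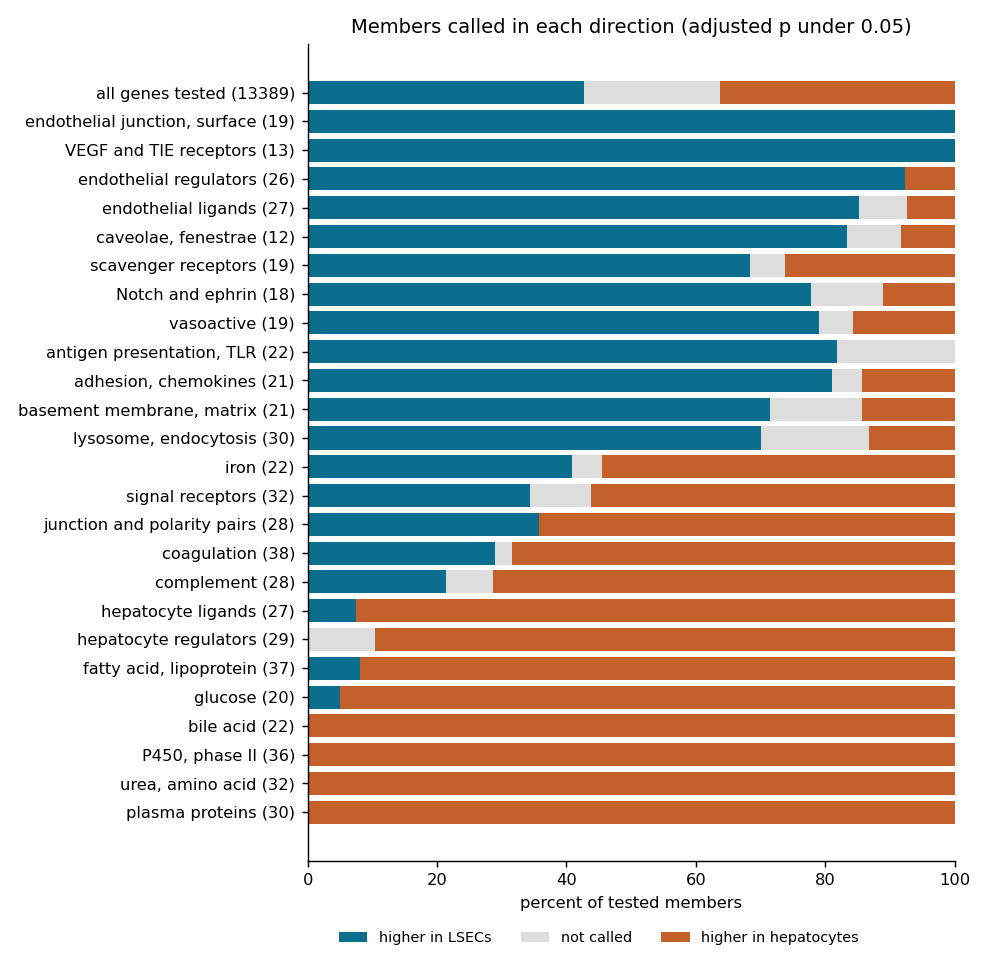
Percent of the tested members of each gene group (number tested in parentheses) that were higher in LSECs, not called, or higher in hepatocytes, with all 13389 tested genes as the top bar. All 19 endothelial junction and surface genes were higher in LSECs and all 30 plasma protein genes in hepatocytes, while the coagulation, complement, iron and signal receptor groups were divided, as were all tested genes.

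The marker genes matched both labels. Stab2, which encodes the hyaluronan scavenger receptor stabilin-2, stood at 5043, 4897, 3712 and 4130 CPM in the LSEC libraries and at 7.35, 9.06, 11.6 and 6.15 CPM in the hepatocyte libraries. Every LSEC library lay far above every hepatocyte library, with a log2 difference of 9.03 ± 0.44 (SE, adjusted p = 1.80e-10). Alb, for serum albumin, stood at 37151, 37706, 55343 and 55850 CPM in hepatocytes and 73.6, 18.1, 86.3 and 57 CPM in LSECs. The groups did not overlap, and the log2 difference was -9.63 ± 0.60 (adjusted p = 2.41e-09). The lowest Alb level among the LSEC libraries was in replicate 2. The other LSEC markers Stab1, Clec4g, Lyve1, Fcgr2b, Pecam1 and Cdh5 were between 404 ± 34.7 CPM (Lyve1, mean ± SD, n = 4, as for all means below) and 4106 ± 216 CPM (Clec4g) in LSECs, and each averaged under 3 CPM in hepatocytes. The other hepatocyte markers Apoa1, Ttr, Fgb, Cps1 and Cyp2e1 were between 4107 ± 635 CPM (Ttr) and 11112 ± 1589 CPM (Apoa1) in hepatocytes and at most 11.9 ± 4.92 CPM in LSECs.

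Receptors that clear material from blood were divided between the cell types, 13 of 19 tested being higher in LSECs and 5 in hepatocytes. LSECs held Stab1 (3254 ± 120 CPM against 0.275 ± 0.193 CPM in hepatocytes), the mannose receptor Mrc1 (2434 ± 122 against 0.637 ± 0.875 CPM), the inhibitory Fc receptor Fcgr2b (1912 ± 144 against 2.36 ± 0.705 CPM), the C-type lectin Clec4g (4106 ± 216 against 0.654 ± 0.603 CPM) and the class A scavenger receptor Msr1 (986 ± 151 against 0.579 ± 0.743 CPM). Cd209b and Cd93 had no count in any hepatocyte library; with 3 counts over the group as a floor, they were at least 1176-fold and at least 8761-fold higher in LSECs. Hepatocytes held Asgr1 and Asgr2, the subunits of the asialoglycoprotein receptor, at 814 ± 55.2 and 133 ± 36.4 CPM against 0.882 ± 0.604 and 0.102 ± 0.0568 CPM in LSECs. The lipoprotein and protease receptor Lrp1 was at 435 ± 181 CPM in hepatocytes and 1.19 ± 0.741 CPM in LSECs. Scarb1, the HDL receptor, was the single member not called: its levels were 226, 307, 310 and 317 CPM in LSECs and 260, 236, 383 and 338 CPM in hepatocytes, which overlapped, with a log2 difference of -0.07 ± 0.17 (adjusted p = 0.719), or 0.78 without composition scaling. Colec12 was the scavenger receptor whose hepatocyte excess was moderate, at 76.9 ± 22.4 against 18 ± 3.05 CPM.

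The fatty acid transporter Cd36 was higher in LSECs by 3.72 ± 0.40 log2 (adjusted p = 9.03e-07). Its levels were 1289, 1449, 1506 and 1673 CPM in LSECs and 47.5, 92.9, 89.5 and 218 CPM in hepatocytes. Hepatocyte replicate 4 was the highest of its group, and the groups did not overlap.

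All 19 tested genes of endothelial junctions and surface were higher in LSECs, each by at least 4-fold, with a median log2 difference of 12.37, or 11.72 with the 5 members that had no hepatocyte count set at their lower bound (0.18 over all tested genes). They included the adhesion molecules Pecam1 (770 ± 66.8 against 0.196 ± 0.0997 CPM) and Cdh5 (449 ± 37.9 against 0.195 ± 0.203 CPM), the tight junction gene Cldn5 (475 ± 42.7 against 0.0673 ± 0.0735 CPM), the TGF-beta co-receptor Eng (3434 ± 141 against 1.03 ± 0.856 CPM) and the phosphatase Ptprb (3221 ± 614 against 0.62 ± 0.58 CPM). Vwf, for von Willebrand factor and a mark of larger vessels, was low at 25.2, 15.5, 7.68 and 8.54 CPM in LSECs, and Cd34 stood at 52.9 ± 6.38 CPM. Among growth factor receptors of endothelium, all 13 tested were higher in LSECs. The main VEGF receptor Kdr stood at 5617, 5248, 4383 and 4767 CPM in LSECs and 0.613, 2.42, 0.0574 and 0.9 CPM in hepatocytes. Flt4, the receptor of VEGFC, stood at 2049 ± 454 against 0.374 ± 0.406 CPM, and Tek, the angiopoietin receptor, at 986 ± 94 against 0.145 ± 0.26 CPM. The sphingosine-1-phosphate receptor S1pr1 was the exception in size, at 294 ± 78.5 CPM in LSECs and 104 ± 17.8 CPM in hepatocytes (log2 difference 1.49 ± 0.36).

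Of 12 genes of caveolae, fenestrae and membrane scission, 10 were higher in LSECs. Ehd3, for a membrane-remodelling ATPase, reached 7771 ± 458 CPM against 2.56 ± 2.34 CPM in hepatocytes and 2675 CPM in HSCs. The endocytic adaptor Dab2 (1130 ± 125 against 0.387 ± 0.226 CPM) and the caveolins Cav1 (81.7 ± 10.8 against 0.106 ± 0.126 CPM) and Cav2 (506 ± 99.7 against 0.3 ± 0.368 CPM) were also higher. Plvap, for the diaphragm protein of endothelial openings, was at 390 ± 44.6 CPM in LSECs, 0.566 ± 0.419 CPM in hepatocytes and 12013 CPM in HSCs. Pacsin2 was higher in hepatocytes (85.6 ± 9.39 against 55.3 ± 8.37 CPM), a direction that turned to 0.20 log2 without composition scaling, and Ehd2, under 1 CPM in both, was not called.

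By size, the 12 genes with the largest fitted difference towards LSECs, among called genes at 50 CPM or more without overlap, were Elk3, Podxl, Fgd5, Cd93, Lrrc8c, Itga8, Icam2, Rhoj, Flt1, Tbxa2r, Akap12 and Rapgef3. None had a count in any hepatocyte library. Their lower bounds ran from 4036-fold (Rapgef3, a cAMP-activated exchange factor) to 14710-fold (Elk3, an ETS family regulator), with the sialomucin gene Podxl at 10494-fold and the VEGF receptor gene Flt1 at 5065-fold. Itga8 and Rhoj were also found in HSCs, at 268 and 147 CPM. On the hepatocyte side, the 12 were Abcg5, Cyp3a59, Abca8b, Slc17a3, Abcg8, Cyp2b10, Igfbp1, Chdh, Aadat, Cps1, Slc17a4 and Acsm5. Abcg5, which pairs with Abcg8 as the biliary sterol transporter, had no LSEC count and was at least 3895-fold higher in hepatocytes. Abcg8, with a single LSEC count, differed by a ratio of 8486 (counting interval 1523 to 335173). Cyp3a59 and Cyp2b10 have close paralogs, so their levels depend on how shared reads were counted. Among the 12 was also Cps1, the first enzyme of the urea cycle, at 5712, 5485, 15024 and 13963 CPM in hepatocytes and 1.6, 0.151, 6.36 and 2.6 CPM in LSECs.

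Regulators of the endothelial and hepatocyte states lay mostly on opposite sides. Of 26 endothelial regulators, 24 were higher in LSECs, all by at least 4-fold, and 2 in hepatocytes, 1 of them by at least 4-fold. Of 29 tested hepatocyte regulators, 26 were higher in hepatocytes and none in LSECs. The ETS factors Ets1 (1382 ± 57.2 against 2.75 ± 1.55 CPM), Fli1 (103 ± 11.2 against 0.0507 ± 0.0687 CPM) and Erg (49 ± 7.22 against 0.1 ± 0.201 CPM) and the SOX factor Sox18 (517 ± 163 against 0.0632 ± 0.0604 CPM) were LSEC genes. Gata4, a regulator of sinusoidal identity, stood at 927, 758, 792 and 612 CPM in LSECs and 13.7, 11.5, 21.9 and 19.3 CPM in hepatocytes, without overlap. The hepatocyte genes included the nuclear receptor Hnf4a (508 ± 74.7 against 0.867 ± 0.396 CPM), Foxa3 (164 ± 73.4 against 0.105 ± 0.116 CPM), the bile acid receptor Nr1h4 (133 ± 15.5 against 0.682 ± 0.125 CPM) and the fatty acid sensor Ppara (136 ± 13.8 against 0.136 ± 0.147 CPM). Nr1h4 was also found in HSCs, at 277 CPM.

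Some regulators were shared. Hhex, a homeobox gene counted in both lists, was higher in hepatocytes (135 ± 54 against 58.4 ± 17.2 CPM, log2 difference -1.21 ± 0.32, adjusted p = 0.00361). Against the 2 hepatocyte libraries with Malat1 at or above 100 CPM, the difference of Hhex was -0.60 (adjusted p = 0.0881). Among hepatocyte regulators, Nr5a2, a regulator of bile acid synthesis, was not called: it stood at 10.1, 9.03, 11.2 and 11.5 CPM in LSECs, 10.2, 17.6, 13.8 and 13.4 CPM in hepatocytes and 0.0288 CPM in HSCs, and the log2 difference was -0.39 ± 0.19 (adjusted p = 0.0752). Without hepatocyte replicate 1 its adjusted p was 0.0211, and DESeq2 gave 0.0463. Xbp1, a regulator of the secretory pathway (238 ± 33.9 and 297 ± 57.5 CPM, a log2 difference of -0.32 that became 0.49 without composition scaling), and Zhx2 (12.7 ± 2.77 and 11.4 ± 1.31 CPM) were not called either. Rxra, the partner of many nuclear receptors, differed by -0.91 ± 0.14 log2, at 222 ± 10.6 CPM in LSECs, and by -0.07 without composition scaling. Klf2, a flow-responsive factor, stood at 1218, 2270, 622 and 556 CPM in LSECs and 2.88, 2.13, 2.47 and 1.45 CPM in hepatocytes; LSEC replicate 2 was the highest.

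Sequences 250 bases before RefSeq transcript starts (GRCm38.p6, which is mm10) were searched on both strands for short binding-site letters of the regulators above. They are shown because ETS regulators lay on the LSEC side and HNF4 on the hepatocyte side. The LSEC set was 39 called genes of the junction, receptor, regulator and scavenger lists, which hold 19, 13, 24 and 13 called members. The hepatocyte set was 100 called genes of the plasma protein, coagulation, bile acid, urea and regulator lists, which hold 30, 26, 22, 32 and 26. Some members are in 2 lists, and those without a promoter in the reference were not searched. Genes with more than 1 start, such as Egfl7, count once per start. The short ETS letters CAGGAAG were found in 23.4% of 47 promoters of the LSEC set and 12.4% of 121 promoters of the hepatocyte set. Over all 32851 promoters the share was 10.8%. The 5 shown here, for the sinusoidal scavenger receptors Stab1 and Mrc1, the adhesion gene Robo4, the regulator Erg and the regulator Elk3, are given as 29 bases with the letters in capitals on either strand:
Stab1: gcgtcctgggcCAGGAAGccctgaacagg
Mrc1: acttctccccaCTTCCTGcgttttctcct
Robo4: tgagggccaggCAGGAAGcatccgtttcc
Erg: aatagaaacctCTTCCTGccattggctga
Elk3: gggtggccgagCAGGAAGcggggcgggca
These windows lie at chr14:31168741-31168769 on the minus strand, chr2:14229193-14229221 on the plus strand, chr9:37401911-37401939 on the plus strand, chr16:95459371-95459399 on the minus strand and chr10:93311169-93311197 on the minus strand. The longer ETS letters CCGGAAGT were in 0 promoters of either set and in 2.88% of all promoters, and the GATA letters AGATAA were in 4.26%, 10.7% and 9.99%. The HNF4 letters CAAAGTCCA were in 0 LSEC promoters, 0.826% of hepatocyte promoters and 0.384% of all, and the C/EBP letters TTGCGCAA were in 0 promoters of either set and 0.164% of all. No 2 of these motifs contain one another. A match describes the letters and shows no binding.

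Genes of blood clotting were divided between the cell types. Of 38 tested, 26 were higher in hepatocytes and 11 in LSECs. Hepatocytes held the fibrinogen chains, prothrombin and further vitamin K-dependent factors. Fgb stood at 6569 ± 1092 CPM, F2 at 3731 ± 771 CPM, F9 at 273 ± 32.1 CPM and F10 at 880 ± 86.9 CPM. Each of these was at no more than 11.2 ± 2.53 CPM (F2) in LSECs. F8, for coagulation factor VIII, stood at 1665, 1830, 1491 and 1504 CPM in LSECs and 1.08, 1.6, 2.81 and 1.95 CPM in hepatocytes. All LSEC libraries lay above all hepatocyte libraries, with a log2 difference of 9.78 ± 0.40 (adjusted p = 3.36e-11), and HSCs held 1.91 CPM. F5, the related cofactor, had the reverse distribution, at 620 ± 323 CPM in hepatocytes and 0.518 ± 0.265 CPM in LSECs. Lman1 and Mcfd2, for the cargo receptor that carries both cofactors out of the endoplasmic reticulum, were found in both cell types, at 176 ± 17 and 269 ± 22.7 CPM in LSECs and 400 ± 120 and 400 ± 36.7 CPM in hepatocytes; the hepatocyte excess of Mcfd2 turned to 0.25 log2 towards LSECs without composition scaling.

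Several clotting genes of the vessel wall, among them anticoagulants, lay on the LSEC side. Tfpi, an inhibitor of the tissue factor pathway, was at 500 ± 65 against 0.223 ± 0.176 CPM, Thbd (thrombomodulin) at 190 ± 90.4 against 0.268 ± 0.181 CPM, and the thrombin receptor F2r at 826 ± 98.7 against 1.12 ± 0.638 CPM. Procr, the endothelial protein C receptor, was at 6.14 ± 0.232 against 0.0478 ± 0.0552 CPM, and Plat, for tissue plasminogen activator, was low, at 1.29 ± 0.562 CPM. Protein C itself (Proc) was a hepatocyte gene (812 ± 185 against 1.12 ± 0.621 CPM). Its cofactor protein S (Pros1) was higher in LSECs, at 964, 1054, 985 and 1092 CPM against 59.4, 52.5, 149 and 99.1 CPM in hepatocytes, and stood at 874 CPM in HSCs. Antithrombin (Serpinc1, 5502 ± 1283 CPM) and plasminogen (Plg, 4158 ± 1421 CPM) were hepatocyte genes.

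**Figure D3:**
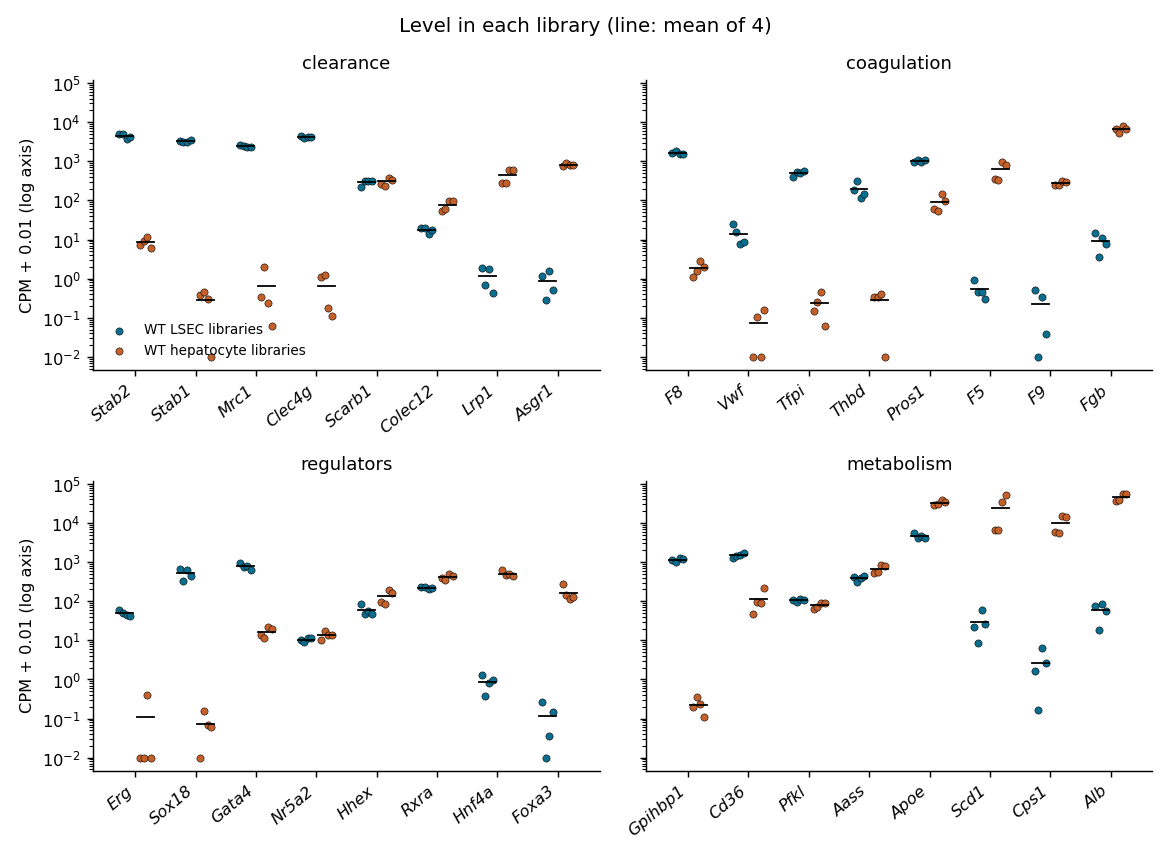
Level of 32 genes in each WT LSEC library and each WT hepatocyte library (CPM plus 0.01, log axis; horizontal lines are means of 4 libraries). F8, Tfpi, Thbd and Pros1 are higher in LSECs while F5, F9 and Fgb are higher in hepatocytes, Scarb1 and Nr5a2 overlap, and Scd1 and Cps1 split the hepatocyte libraries into pairs.

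Complement genes were mainly hepatocyte genes, 20 of 28 tested, with 6 higher in LSECs. The central component C3 stood at 14263 ± 5221 CPM in hepatocytes and 12.9 ± 7.53 CPM in LSECs, and C8b, of the membrane attack complex, at 288 ± 60 against 0.101 ± 0.0901 CPM. Cd55, for decay-accelerating factor, was at 510, 749, 659 and 666 CPM in LSECs and 0.377, 0.0485, 0 and 0.15 CPM in hepatocytes, without overlap. Cd59a, which blocks the membrane attack complex, was higher in LSECs by 1.63 ± 0.15 log2. Masp1, a lectin pathway protease, was at 296 ± 25.1 against 160 ± 71.9 CPM, while its relative Masp2 was at 0.17 ± 0.119 against 249 ± 69.8 CPM. Hc, for C5, reached 19.6 ± 4.69 CPM in LSECs against 655 ± 230 CPM. Colec11, a soluble lectin of the same pathway, was also higher in LSECs (1.26 ± 0.245 against 0.0485 ± 0.0969 CPM). The other 2 higher in LSECs, C1qb and C1qc, stood at 11.1 ± 4.15 and 5.39 ± 1.96 CPM; they are macrophage genes and are among the Kupffer cell markers summed above, whose part in the difference was not tested. The call of C1qc was lost without hepatocyte replicate 3 or 4 or LSEC replicate 3 or 4 (adjusted p = 0.0655, 0.0714, 0.0539 and 0.0872). C1qa and Cfp were not called, but C1qa was without hepatocyte replicate 2 (adjusted p = 0.0225).

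The metabolic and secretory groups of the parenchyma were on the hepatocyte side. All 30 plasma protein genes, all 22 bile acid genes, all 36 tested P450 and conjugation genes and all 32 urea cycle and amino acid genes were higher in hepatocytes, with median log2 differences of -9.75, -10.04, -10.19 and -10.13. Plasma proteins took 16% ± 0.654 of hepatocyte counts and 0.609% ± 0.0977 of LSEC counts (SD, n = 4). Trf, for transferrin, stood at 41777 ± 5981 CPM, Cyp3a11 at 11252 ± 2137 CPM, Cyp2e1 at 5640 ± 679 CPM, the bile acid uptake transporter Slc10a1 at 1112 ± 442 CPM and the rate-limiting bile acid enzyme Cyp7a1 at 472 ± 190 CPM.

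The LSEC level of these genes, taken as a percent of the hepatocyte mean, was low for most of them, with a tail of higher values. For 29 of the 30 plasma protein genes it lay between 0% and 0.167%, with a median over all 30 of 0.116%. In the single LSEC libraries that median was 0.16%, 0.0419%, 0.138% and 0.1%, so replicate 2 was the lowest here as for Alb. Some hepatocyte-called members of these groups stood far above this level. Apoe, for apolipoprotein E, was at 13.8% of the hepatocyte mean, with 5478, 4243, 4669 and 4056 CPM in LSECs, 29174, 31250, 39071 and 33794 CPM in hepatocytes and 2378 CPM in HSCs. Among the LSEC libraries Apoe was lowest in replicate 4 (4056 CPM), with replicate 2 next (4243 CPM), and the source of this RNA was not tested. Aass, for the first enzyme of lysine breakdown, reached 57.5% at 409, 313, 388 and 439 CPM in LSECs, against 529, 570, 820 and 776 CPM in hepatocytes and 1.31 CPM in HSCs. The hepatocyte excess of Aass (log2 difference -0.80 ± 0.30, adjusted p = 0.0249) was 0.05 in the other direction without composition scaling, and its adjusted p was 0.062, 0.0533 and 0.0639 without hepatocyte replicate 3, hepatocyte replicate 4 and LSEC replicate 2. Glul, for glutamine synthetase, reached 41.5% (106 ± 16.3 against 256 ± 83.2 CPM), and the flavin monooxygenase gene Fmo1 reached 26.3% (130 ± 10.3 against 495 ± 41.4 CPM, with 0.504 CPM in HSCs). Aldh2, for the mitochondrial aldehyde dehydrogenase, was at 788 ± 77.5 against 3313 ± 141 CPM. In total, 6 of 36 P450 and conjugation genes (Ephx1, Sult1a1, Por, Gstp1, Aldh2 and Fmo1), 5 of 32 urea and amino acid genes (Got1, Oat, Glud1, Glul and Aass) and 13 of 34 fatty acid and lipoprotein genes called in hepatocytes lay above 5%. Over all tested genes, 4854 were higher in hepatocytes and 2441 of them by at least 4-fold. The rest differed by less than 4-fold, so an LSEC level above 5% is common among hepatocyte-called genes outside these lists. The exact share above 5% over all of them is not given here. Whether the RNA near 0.1% came from hepatocytes in the LSEC samples was not tested, and in bulk samples a few cells of another type and a low level in every cell cannot be told apart. In the other direction, the 19 junction and surface genes stood in hepatocytes at a median of 0.0171% of the LSEC mean, the highest being 0.434%.

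**Figure D4:**
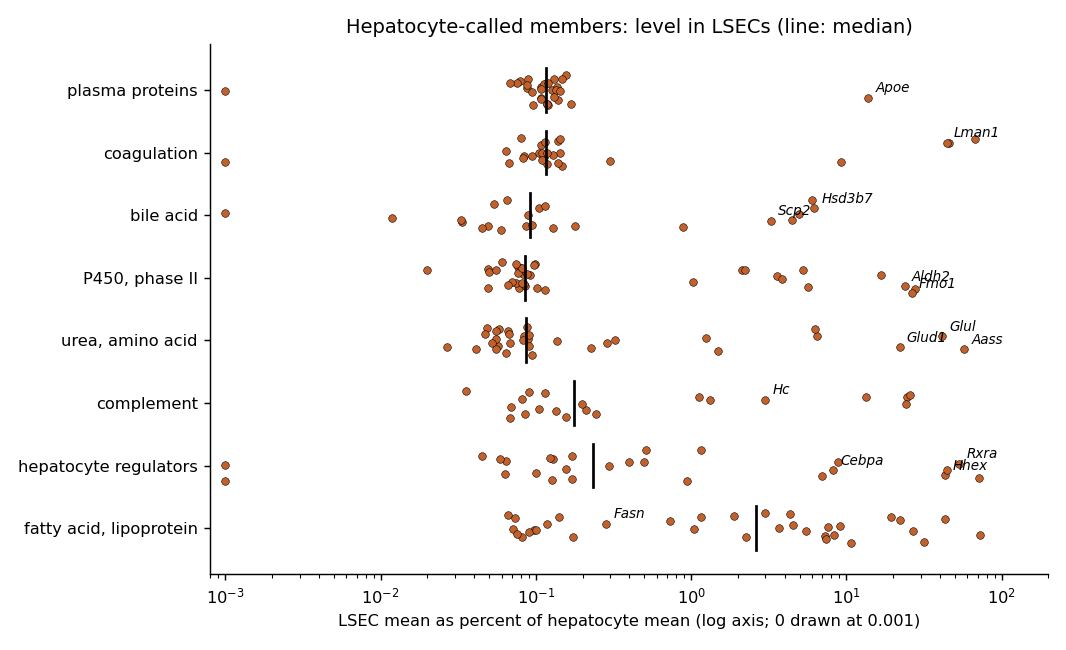
LSEC mean as a percent of the hepatocyte mean (log axis, 0 drawn at 0.001) for each member called higher in hepatocytes, by gene group; vertical lines are medians. Plasma protein genes gather near 0.116% with Apoe alone at 13.8%, while the fatty acid and lipoprotein group spreads to a median of 2.61%.

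Enzymes with a liver form and a general form were compared per length, as the share of the liver form in the summed CPM per kilobase. Pyruvate kinase (Pklr against Pkm) was 99.2% ± 0.656 liver form in hepatocytes and 0.0238% ± 0.0232 in LSECs (SD, n = 4, as for the shares that follow), and glycogen phosphorylase (Pygl against Pygb) 99.5% ± 0.173 and 1.51% ± 0.678. The liver form was the major one in both cell types for 3 enzymes. Fructose-bisphosphatase (Fbp1 against Fbp2) was at 100% and 99.5% ± 1.03 and arginase (Arg1 against Arg2) at 100% and 86.8% ± 16.2, with a general form too low to be tested; their liver forms stood in LSECs at 2.26 ± 1.73 and 1.32 ± 0.681 CPM, against 2868 ± 355 and 2311 ± 469 CPM in hepatocytes. For phosphofructokinase (Pfkl against Pfkp) the liver form was at 99.3% ± 0.569 in hepatocytes and 64.5% ± 2.17 in LSECs, and its level was higher in LSECs (106 ± 6.81 against 78.4 ± 13.8 CPM, adjusted p = 0.00671), a call lost against the 2 hepatocyte libraries under 100 CPM of Malat1 (0.24 log2, adjusted p = 0.0608). Pkm stood at 620 ± 72.4 CPM in LSECs and 1.08 ± 0.628 CPM in hepatocytes, and Hk1 at 146 ± 14.7 against 0.274 ± 0.329 CPM. The list also paired genes that are not enzymes, so that Cdh5, Cldn5, Gja4 and Vim were among its 18 tested non-liver forms. In 3 of the 18 the hepatocyte level was the higher: the glucose transporter Slc2a1 (19.9 ± 5.76 against 5 ± 1.23 CPM), the sterol pathway enzyme Hmgcs1 (1521 ± 650 against 46.4 ± 11.4 CPM) and the nuclear receptor Pparg (15.4 ± 6.47 against 4.36 ± 0.888 CPM).

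Fatty acid and lipoprotein genes were higher in hepatocytes for 34 of 37 tested and in LSECs for 3, which were Cd36, Gpihbp1 and Fabp4. Gpihbp1, which anchors lipoprotein lipase to capillary walls, stood at 1139, 1017, 1258 and 1169 CPM in LSECs and 0.189, 0.339, 0.229 and 0.1 CPM in hepatocytes. Lipoprotein lipase itself (Lpl) was under 1 CPM in LSECs (0.64 ± 0.388 CPM), at 17.6 ± 5.88 CPM in hepatocytes and 81.4 CPM in HSCs. The fatty acid binding proteins split by form, Fabp4 at 124 ± 41.9 CPM in LSECs and 0.072 ± 0.0926 CPM in hepatocytes, and Fabp1 at 2.19 ± 0.937 and 2682 ± 1444 CPM. Fabp5 was close to equal, at 139 ± 26.2 and 194 ± 38.7 CPM (log2 difference -0.47 ± 0.19, adjusted p = 0.0377), and its call was lost without hepatocyte replicate 1 or 4 or LSEC replicate 1 or 2 (adjusted p = 0.122, 0.0562, 0.115 and 0.0915) and turned to 0.35 log2 without composition scaling. The desaturase Scd1 varied among the hepatocytes, at 6617, 6458, 33743 and 52374 CPM, against 22.4, 8.48, 59.9 and 25.6 CPM in LSECs; replicates 3 and 4 were several times higher than replicates 1 and 2, and the groups did not overlap.

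Iron genes were divided, with 9 of 22 higher in LSECs and 12 in hepatocytes. All tested genes were divided too (42.7% and 36.3%), and the LSEC count of iron genes is close to that share. Bmp2 and Bmp6, the ligands that raise hepcidin, were LSEC genes. Bmp2 stood at 2108, 3147, 1498 and 2089 CPM in LSECs and 0.377, 1.31, 0.287 and 0.2 CPM in hepatocytes, and Bmp6 at 630, 408, 323 and 422 CPM and 0, 0.0485, 0.115 and 0.15 CPM. Neither gene's groups overlapped. Hamp, for hepcidin, stood at 663, 624, 516 and 511 CPM in hepatocytes and 1.12, 0.181, 0.0515 and 0.594 CPM in LSECs. The parts of the receptor complex were divided. Hepatocytes held the co-receptor Hfe2 (hemojuvelin, 119 ± 37.1 against 0.197 ± 0.161 CPM), the iron sensor Tfr2 (702 ± 291 against 1.02 ± 0.396 CPM), the hepcidin suppressor Tmprss6 (648 ± 218 against 1.06 ± 0.487 CPM) and the type I receptor Bmpr1a (44 ± 2.18 against 0.252 ± 0.0807 CPM). The type I receptor Acvr1 (57.3 ± 5.71 against 9.98 ± 1.33 CPM), the type II receptor Bmpr2 (136 ± 9.59 against 6.22 ± 1.38 CPM) and Hfe (217 ± 17.9 against 80.2 ± 12 CPM) were higher in LSECs, and the type II receptor Acvr2a was not called (45.1 ± 5.7 and 41.6 ± 4.93 CPM). The BMP feedback genes Smad6 (424 ± 74.6 against 4.85 ± 2.93 CPM), Smad7 (125 ± 26.8 against 14.1 ± 4.18 CPM) and Id1 (70.8 ± 22.6 against 7.1 ± 5.57 CPM) were higher in LSECs.

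Iron handling itself was also divided. The exporter ferroportin (Slc40a1) was higher in LSECs by 1.29 ± 0.17 log2, at 606 ± 57.9 against 247 ± 22.8 CPM. Its partner oxidases differed in form. Heph, the membrane-bound one, was at 63.1 ± 3 CPM in LSECs with no hepatocyte count, at least 1666-fold higher, and the plasma one, ceruloplasmin (Cp), was at 1508 ± 416 CPM in hepatocytes. Transferrin receptor (Tfrc) was at 0.47 ± 0.177 CPM in LSECs and 24.6 ± 10.2 CPM in hepatocytes, and the importer Slc11a2 was not called (24.2 ± 1.42 and 25.2 ± 4.94 CPM; 0.79 log2 towards LSECs without composition scaling).

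Of 27 tested ligands attributed to liver endothelium, 23 were higher in LSECs. Wnt2, which maintains pericentral hepatocytes, stood at 298, 308, 215 and 307 CPM in LSECs and 0.0471, 0.0969, 0.344 and 0 CPM in hepatocytes. Wnt9b (9.07 ± 5.76 against 0.156 ± 0.129 CPM) and Rspo3 (1.8, 9.33, 3.48 and 2.4 CPM in LSECs, no count in hepatocytes, 376 CPM in HSCs) were low. WNT receptors were found in both: Fzd4 was the LSEC gene (175 ± 33.1 against 13.3 ± 6.59 CPM) and Fzd7 the hepatocyte gene (21.5 ± 5.41 against 2.4 ± 0.538 CPM), while the R-spondin receptors Lgr4 (112 ± 48.9 against 3.52 ± 0.467 CPM) and Lgr5 (10.9 ± 4.48 against 0.0205 ± 0.0267 CPM) were hepatocyte genes. Hgf, the hepatocyte growth factor gene, was at 101, 97.9, 29.4 and 65.3 CPM in LSECs with no hepatocyte count, and its receptor Met at 126 ± 53.8 CPM in hepatocytes and 0.0746 ± 0.071 CPM in LSECs. HSCs held 1223 CPM of Hgf, and the stellate marker Lrat stood at 0.921 ± 0.466 CPM in LSECs against 2907 CPM in HSCs. Cxcl12 was higher in hepatocytes than in LSECs (255 ± 21 against 3.03 ± 1.18 CPM) and highest of the 3 in HSCs (10026 CPM). Pdgfa was slightly higher in hepatocytes (2.87 ± 0.624 against 1.8 ± 0.498 CPM, adjusted p = 0.0206), a call lost without hepatocyte replicate 4 or LSEC replicate 1, 3 or 4 (adjusted p = 0.0742, 0.0508, 0.0611 and 0.0517) and at 0.14 log2 in the other direction without composition scaling, and Bmp4 and Cx3cl1, both under 1 CPM in both cell types, were not called.

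Of 27 tested hepatocyte ligands, 25 were higher in hepatocytes and 2, Tgfa (49.6 ± 6.63 against 27.5 ± 2.98 CPM) and Adm (53.4 ± 23.3 against 0.229 ± 0.32 CPM), in LSECs. Vegfa stood at 70.8 ± 17.6 CPM in hepatocytes and 6.33 ± 1.91 CPM in LSECs, opposite to its receptor Kdr. Igf1, the main circulating growth factor of the liver, stood at 940 ± 96.1 CPM in hepatocytes and 1.51 ± 0.761 CPM in LSECs. Its receptor Igf1r had the reverse distribution, at 27.5, 20.6, 15.8 and 18.7 CPM in LSECs and 0.0471, 0, 0 and 0 CPM in hepatocytes, where the 4 libraries held 1 count together. The ratio of Igf1r was 1629 (counting interval 292 to 64325). The insulin receptor Insr was found in both, at 21.6 ± 9.89 CPM in LSECs and 61.2 ± 22.4 CPM in hepatocytes (log2 difference -1.50 ± 0.30). Apom, the plasma carrier of sphingosine-1-phosphate, was a hepatocyte gene (549 ± 36.4 against 0.372 ± 0.194 CPM).

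The receptor of interleukin-6 was split between its chains. The ligand-binding chain Il6ra stood at 1.21, 1.36, 1.11 and 0.961 CPM in LSECs and 56.3, 47.8, 41.4 and 37.3 CPM in hepatocytes. The signalling chain Il6st (gp130) stood at 3814, 3426, 3389 and 3232 CPM in LSECs and 49.7, 40.9, 98.6 and 97.5 CPM in hepatocytes. The 2 genes therefore had opposite log2 differences of -5.30 ± 0.30 and 5.60 ± 0.33, with no overlap in either. The leptin receptor Lepr, of the same receptor family, was also higher in LSECs (89.2 ± 3.41 against 9.98 ± 4.56 CPM). The receptors for growth hormone (Ghr, 983 ± 182 against 28.7 ± 4.31 CPM), glucagon (Gcgr, 238 ± 19.4 against 0.139 ± 0.0468 CPM), prolactin (Prlr, 492 ± 86.9 against 0.424 ± 0.232 CPM) and epidermal growth factor (Egfr, 354 ± 140 against 0.16 ± 0.0348 CPM) were hepatocyte genes. In all, 18 of 32 tested signal receptors were higher in hepatocytes and 11 in LSECs, beside 36.3% and 42.7% of all tested genes. Acvr2a, Acvr2b and Neo1 were not called. Neo1 was called higher in hepatocytes without hepatocyte replicate 1 (adjusted p = 0.0204), and higher in LSECs by 0.62 log2 against the 2 hepatocyte libraries with Malat1 at or above 100 CPM (adjusted p = 0.0177).

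**Figure D5:**
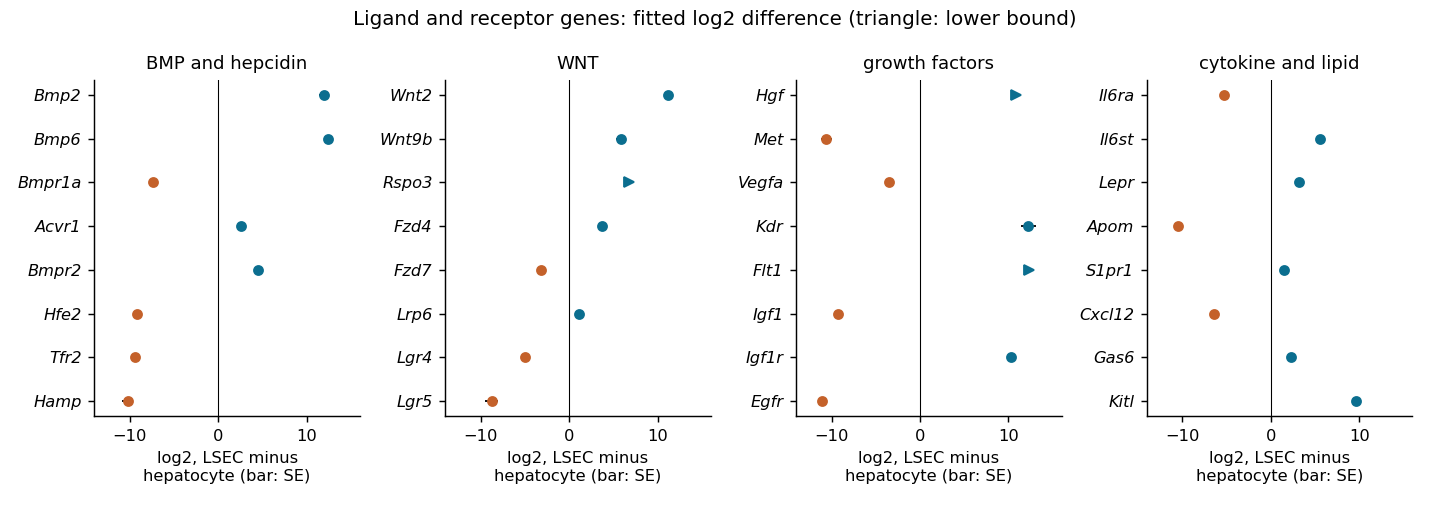
Fitted log2 difference, LSEC minus hepatocyte, for 32 ligand, receptor and target genes in 4 signalling groups (points; bars are the SE; blue, higher in LSECs; orange, higher in hepatocytes; triangles are lower bounds for genes with no hepatocyte count). Bmp2 and Bmp6 lie at 11.96 and 12.44 and Hamp at -10.21, and Il6ra and Il6st lie on opposite sides of 0.

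Notch and vasoactive genes were mainly LSEC genes, 14 of 18 and 15 of 19 tested. The Notch ligand Dll4 (424 ± 74 against 0.144 ± 0.206 CPM) and the receptors Notch1 (275 ± 61.7 against 11.1 ± 1.94 CPM) and Notch4 (188 ± 10.4 against 0.327 ± 0.0752 CPM) were higher in LSECs, while Notch2 (48.8 ± 33.7 against 5.11 ± 1.47 CPM) and Heyl (1.09 ± 1.14 against 0.0362 ± 0.0429 CPM) were higher in hepatocytes. The Notch target Hes1 was at 182 ± 61.7 against 8.63 ± 7.42 CPM. Nos3, for endothelial nitric oxide synthase, stood at 225 ± 49.2 against 0.41 ± 0.124 CPM, and the prostaglandin synthase Ptgs1 at 424 ± 33.6 against 0.584 ± 0.694 CPM. The angiotensin genes were hepatocyte genes, the precursor Agt and the receptor Agtr1a, the latter at 111 ± 27.8 against 0.28 ± 0.239 CPM. Ece1, the endothelin-converting enzyme, was not called (668 ± 153 and 436 ± 178 CPM, adjusted p = 0.0535), although it was called without hepatocyte replicate 3 or 4 or LSEC replicate 3 (adjusted p = 0.0166, 0.0279 and 0.0424).

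Matrix genes were higher in LSECs for 15 of 21 tested. The collagen IV chains Col4a1 (1303 ± 175 against 5.35 ± 1.34 CPM) and Col4a2 (789 ± 105 against 6.04 ± 3.21 CPM), the perlecan gene Hspg2 (587 ± 61.5 against 0.769 ± 0.483 CPM) and the laminin chains Lama4 (361 ± 89.1 against 0.188 ± 0.375 CPM) and Lamb2 (381 ± 40.8 against 0.168 ± 0.236 CPM) were LSEC genes. The laminin chain Lamb1 was under 1 CPM in both (0.212 ± 0.0471 and 0.179 ± 0.0588 CPM) and stood at 1090 CPM in HSCs. Lamb1, Nid2 and Sparcl1 were the members not called. Besides Col15a1, hepatocytes held fibronectin (Fn1, 1155, 967, 3188 and 2874 CPM, against 2.08, 1.57, 2.63 and 1.55 CPM in LSECs) and the collagen XVIII gene Col18a1 (959, 905, 2810 and 2537 CPM, against 3.26, 0.906, 2.24 and 1.89 CPM). In both, hepatocyte replicates 3 and 4 were higher than replicates 1 and 2, and all were above every LSEC library. Ltbp4, for a TGF-beta binding protein, reached 4664 ± 713 CPM in LSECs and 1536 CPM in HSCs.

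Families of junction and cytoskeleton genes were divided member by member, 18 of 28 being higher in hepatocytes and 10 in LSECs. Among cadherins, Cdh1 (142 ± 45.7 against 0.18 ± 0.123 CPM) and Cdh2 (146 ± 53.8 against 0.487 ± 0.44 CPM) were hepatocyte genes beside the endothelial Cdh5. Among connexins, Gjb1 (1268 ± 177 against 1.07 ± 0.481 CPM) and Gjb2 (349 ± 81.2 against 0.45 ± 0.356 CPM) were hepatocyte genes and Gja1 (196 ± 63.4 against 0.025 ± 0.05 CPM) and Gja4 (289 ± 99.7 against 0.0746 ± 0.0833 CPM) LSEC genes. Of the proteins that link actin to the membrane, moesin (Msn) stood at 1080, 1444, 1312 and 1402 CPM in LSECs and 0.613, 2.37, 0.459 and 0 CPM in hepatocytes, whereas radixin (Rdx) was at 57.5 ± 7.69 against 313 ± 35.8 CPM. Hepatocytes carried the keratins Krt8 and Krt18 at 504 ± 30.9 and 296 ± 17.9 CPM, and LSECs carried vimentin (Vim) at 235 ± 15.2 against 0.0628 ± 0.0914 CPM. Dpp4, a peptidase of the bile canaliculus, was higher in LSECs (1525 ± 43.6 against 257 ± 102 CPM), and its canalicular neighbour Ceacam1 was higher in hepatocytes (176 ± 72.8 against 59 ± 12.6 CPM).

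Genes of antigen presentation and innate sensing were higher in LSECs for 18 of 22 tested and in hepatocytes for none. For class I, the transporter Tap2 (200 ± 18.7 against 50 ± 18.6 CPM), Tapbp (771 ± 53.2 against 281 ± 122 CPM) and H2-D1 (1652 ± 56.3 against 466 ± 151 CPM) were higher, while H2-K1 (1585 ± 47.2 and 1931 ± 672 CPM) and B2m (3078 ± 495 and 2189 ± 453 CPM) were not called, nor were H2-Eb1 and Icosl. B2m was called without hepatocyte replicate 3 or LSEC replicate 1 (adjusted p = 0.0186 and 0.0227). H2-K1 stood at 0.58 log2 towards LSECs without composition scaling and at -0.64 against the 2 hepatocyte libraries under 100 CPM of Malat1. Class II genes were low in LSECs: Cd74, the invariant chain, stood at 15.1, 8.91, 27.4 and 37.3 CPM and 7.26, 10.3, 1.66 and 2.2 CPM in hepatocytes, with overlapping groups (adjusted p = 0.0122, and 0.104 against the 2 hepatocyte libraries with Malat1 at or above 100 CPM), and H2-Ab1 at 7.84 ± 4.5 and 1.85 ± 1.57 CPM. These class II genes are also macrophage and lymphocyte genes. The 12 lymphocyte markers, 8 of them at 0 in hepatocytes, summed to 1.48 to 6.13 CPM in LSECs and 0.0943 to 0.516 CPM in hepatocytes, and their part was not tested. Among sensors, Tlr4 (42.6 ± 5.43 CPM, no hepatocyte count) was at least 1124-fold higher in LSECs. The inhibitory ligand Cd274 (PD-L1) stood at 35.7 ± 7.34 against 1.48 ± 0.545 CPM.

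Of 21 tested adhesion and chemokine genes, 17 were higher in LSECs, among them Icam1 (162 ± 19.3 against 7.23 ± 0.818 CPM), Vcam1 (131 ± 17.8 against 1.55 ± 0.869 CPM), the chemokine Cxcl16 (299 ± 26.9 against 1.5 ± 0.274 CPM) and the scavenging chemokine receptor Ackr2 (130 ± 8.84 against 3.5 ± 2.04 CPM). Ccl9 was a hepatocyte gene, at 228, 302, 172 and 156 CPM against 0.393, 0.181, 0.206 and 0.254 CPM in LSECs, without overlap. The macrophage growth factor Csf1 was higher in LSECs (239 ± 38 against 4.17 ± 1.07 CPM, 447 CPM in HSCs).

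Lysosome and endocytosis genes differed less than the groups above. Of 30 tested, 21 were higher in LSECs, 4 in hepatocytes and 5 not called (Ctsl, Lamp1, Lamp2, Rab5a and Eea1), with a median log2 difference of 0.72. Clathrin heavy chain (Cltc) was at 1310 ± 96.4 against 336 ± 98.6 CPM, prosaposin (Psap) at 1836 ± 113 against 603 ± 232 CPM and legumain (Lgmn) at 734 ± 33 against 14.2 ± 0.74 CPM. Cathepsin L (Ctsl, 1219 ± 111 and 1029 ± 258 CPM), Lamp1 (1214 ± 58.2 and 977 ± 229 CPM) and Rab5a (109 ± 10.7 and 110 ± 14.1 CPM; 0.79 log2 towards LSECs without composition scaling) were not called, and Lamp1 was called without hepatocyte replicate 3 (adjusted p = 0.0396). Cathepsin H (Ctsh) was the large hepatocyte exception, at 436 ± 60.5 against 3.06 ± 0.354 CPM, and the others higher in hepatocytes were Ctsz, Lipa and Npc1. Without composition scaling, 25 members were higher in LSECs and 2 in hepatocytes.

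Markers of position along the sinusoid were present on both sides. All but 1 of 11 central LSEC markers and 10 of 11 portal ones were higher in LSECs, for example the central gene Kit (473 ± 128 against 0.0868 ± 0.144 CPM) and the portal genes Efnb2 (150 ± 29.3 against 0.842 ± 0.753 CPM) and Ntn4 (660 ± 159 against 0.0787 ± 0.0973 CPM). The central marker Lhx6 was not called (10 ± 8.12 and 8.68 ± 1.23 CPM), and the portal marker Ephx1 was higher in hepatocytes (403 ± 84.4 against 21.3 ± 4.02 CPM). Of 14 central hepatocyte markers 13 were higher in hepatocytes, as were all 15 portal ones, for example the central Cyp1a2 (1473 ± 518 CPM) and the portal Hal (1328 ± 205 CPM) and Cyp2f2 (2635 ± 891 CPM). The WNT target Nkd1 was the exception, at 93.3 ± 18.2 CPM in LSECs, 1.61 ± 1.34 CPM in hepatocytes and 393 CPM in HSCs. The WNT targets Axin2 (2.93 ± 0.439 against 0.461 ± 0.347 CPM) and Rnf43 (16.7 ± 4.08 CPM, no count in LSECs) were hepatocyte genes.

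Markers of other cells were also summed. The 15 stellate markers summed to 216 to 268 CPM in LSECs, of which Ecm1 gave 221 ± 23.5 CPM, and to 0.85 to 3 CPM in hepatocytes, where 7 were at 0, against 60762 to 81190 CPM in HSCs. The 8 cholangiocyte markers summed to 31.2 to 35.7 CPM in LSECs and 92.2 to 119 CPM in hepatocytes, mostly Anxa4 (33.1 ± 1.88 and 88.2 ± 13.1 CPM), and the bile duct keratin Krt19 averaged 0.0375 ± 0.075 CPM in hepatocytes. The 11 monocyte and neutrophil markers summed to 6.23 to 9.53 CPM in LSECs and 2.2 to 4.89 CPM in hepatocytes. The 10 erythroid and platelet markers summed to 7.53 to 10.9 CPM in LSECs and 16.7 to 26.5 CPM in hepatocytes. Among them, the globin genes Hbb-b1, Hba-a1 and Hba-a2 had no count in either, while Hbb-bs had counts in LSECs only. Hbb-b1, Hba-a1 and Hba-a2 also had no count in HSCs, where the 10 markers summed to 208 to 300 CPM. The 14 genes of larger vessels summed to 2270 to 3230 CPM in LSECs, mostly Clec14a (1523 ± 304 CPM) and Ly6a (542 ± 138 CPM), while the venous gene Selp stood at 1.89 ± 1.13 CPM and the arterial Gja5 at 2.27 ± 2.07 CPM. In the HSC libraries, the 14 Kupffer cell markers summed to 1467 to 2864 CPM and the 14 genes of larger vessels to 896 to 1014 CPM. The 11 monocyte and neutrophil markers summed there to 200 to 280 CPM, and the 12 lymphocyte markers to 0.133 to 0.28 CPM. The part of these markers in the comparison, and in the HSC levels given beside it, was not tested.

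Spread within a cell type fell on particular genes. In hepatocytes, 148 of 7540 genes at 10 CPM or more were at least 2-fold higher in both of replicates 3 and 4 than in both of replicates 1 and 2, and 52 were at least 2-fold lower. The 148 held 10 of the 35 fatty acid and lipoprotein genes at this level, among them the lipogenic Fasn (716, 971, 2666 and 4628 CPM), Acly (1153, 1361, 3206 and 4084 CPM) and Elovl6 (57.6, 70.3, 177 and 399 CPM). They also held Cps1, Apob (1872, 2002, 5782 and 6310 CPM), Fn1, Col18a1 and Met. The 52 held 6 of 13 immediate-early and stress genes. They also held Malat1, which had to be among them because its level was used to form the pairs. Fasn, Acly, Elovl6, Cps1 and Apob stood above every LSEC library in all 4 hepatocyte libraries. In LSECs, replicate 2 had 91 of 8631 genes at least 2-fold from the group median, against 22, 12 and 11 in replicates 1, 3 and 4. The 20 immediate-early and stress genes summed to 17750 CPM in that library and 2279 to 6342 CPM in the others, with Fos at 1052, 3439, 288 and 182 CPM against 497, 277, 64.1 and 38.4 CPM in hepatocytes. The Fos difference (2.50 log2, adjusted p = 0.0427) became 1.21 (adjusted p = 0.259) without LSEC replicate 2, and its adjusted p was also above the threshold without LSEC replicate 1 or hepatocyte replicate 2, 3 or 4 (0.0577, 0.0683, 0.0969 and 0.0897). Of these 20 genes 9 were called higher in LSECs, 1 was higher in hepatocytes and 10 were not called. The LSEC count is close to the share over all tested genes (42.7%). The 9 included Dusp1 (1868 ± 1559 against 108 ± 80.1 CPM) and Klf6 (146 ± 44.2 against 11.5 ± 2.45 CPM). The cause of the spread of the 20 genes was not tested.

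The same comparison was made in libraries taken after Kupffer cell depletion with DT, which share no library with the WT comparison. At 12 h, 5247 of 13316 tested genes (39.4%) were called with at least a 4-fold difference in either direction, and at 36 h 5388 of 13417 (40.2%). Of the genes at least 4-fold higher in WT LSECs, 2714 of the 2794 tested at 12 h (97.1%) were called in the same direction, whatever the size there. At 36 h this held for 2785 of the 2839 tested (98.1%). On the hepatocyte side, the same held for 2357 of 2392 (98.5%) and 2364 of 2395 (98.7%). Calls of any size took 42.7% of all tested genes towards LSECs and 36.3% towards hepatocytes in WT. The matching shares over all genes are not given for 12 h and 36 h. With at least a 4-fold difference required there as well, the LSEC shares were 88.7% at 12 h and 92.3% at 36 h. The hepatocyte shares were then 91% and 94.3%. A single gene was called in the opposite direction at each time, Pomc at 12 h and Ano1 at 36 h, both under 1 CPM in the WT libraries. With scaling within each time, the log2 difference of F8 was 9.67 at 12 h and 9.60 at 36 h, that of Bmp2 13.30 and 12.21, that of Il6st 5.32 and 6.11, that of Apoe -3.52 and -2.84, and that of Hamp -9.47 and -8.06, beside 9.78, 11.96, 5.60, -2.85 and -10.21 in WT. Each of these 5 kept its direction. Nr5a2 and Scarb1, not called in WT, stood at -0.31 and -0.60 at 12 h (adjusted p = 0.278 and 0.00997, edgeR) and at -0.18 and 0.41 at 36 h (adjusted p = 0.511 and 0.0506). Whether the difference between the cell types changed with time was not tested.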

How the data were processed

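Bulk RNA sequencing of mouse liver cell populations was deposited as 1 table per library of raw read counts for 24421 gene symbols. Per the submitters' processing notes, the authors used FastQC 0.11.4, Trimmomatic 0.35, TopHat2 2.1.0 and SAMtools 0.1.18 with mm10; which counter, annotation and strand setting they used is not given in the sources used here. Summary lines that name no gene (no feature 5.52% to 8.15%, ambiguous 0.953% to 1.15% of the reads in the 8 libraries) were left out. The deposited counts of the 12 WT libraries were fitted with edgeR 4.0.16 (R 4.3.3; TMM scaling, filterByExpr with a minimum count of 10 and a total of 15, quasi-likelihood test, Benjamini-Hochberg adjustment over 13389 genes), with the contrast of LSECs against hepatocytes, and libraries at 12 h and 36 h were fitted separately. CPM used TMM-scaled library sizes. SE is the log2 difference divided by the square root of F. A gene was called at an adjusted p under 0.05. Shares of isozymes divided CPM by the merged exon length of each gene in GENCODE's basic annotation of the same build. DESeq2 1.42.0, other scalings and filters, other sets of libraries and a replicate block were alternatives; scripts were tested on simulated data.

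The comparison and the gene lists were chosen with earlier results of these data known. Genes named were the 12 largest differences each way (at least 50 CPM in the higher group, no overlap, gene models left out), up to 8 members of each list by level, all members that went against their list, and any tested member of the ligand, receptor, regulator, coagulation, complement and isozyme lists; members named beyond these, for their role, were chosen after their values were seen. Depths of 27103264 to 30269160 counts leave genes of few counts imprecise, and counting intervals (95%) cover counting error only. Some members counted in the lists are not reported here.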

Additional observations from a re-analysis of the deposited data

Results flagged for a closer look

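In 441 groups of 4 libraries examined, 19 values stood apart from the other 3 libraries by more than the gap Dixon's test allows, and chance alone flags about 1 in 20. In LSECs, replicate 1 was low for Ackr2 (117 CPM, the others 134 to 136), Lman1 (151 CPM, the others 184 to 186) and Scarb1 (226 CPM, the others 307 to 317). It was high for Lgmn (784 CPM, the others 715 to 720) and Pygb (108 CPM, the others 100 to 101). LSEC replicate 2, which also had the highest immediate-early sum, was low for Cyp2e1 (1.78 CPM, the others 5 to 5.34) and high for Lhx6 (22.2 CPM, the others 5.05 to 6.7), Lyve1 (455 CPM, the others 378 to 391) and Pdgfa (2.54 CPM, the others 1.44 to 1.61). LSEC replicate 3 was low for Wnt2 (215 CPM, the others 298 to 308) and high for Ctsh (3.58 CPM, the others 2.84 to 2.95).

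In hepatocytes, replicate 1 was low for Bmpr1a (40.8 CPM, the others 44.7 to 45.5) and Zhx2 (9.43 CPM, the others 11.9 to 12.1) and high for Ets1 (5.04 CPM, the others 1.6 to 2.18), Foxa3 (273 CPM, the others 114 to 140) and Tfrc (39.7 CPM, the others 18.4 to 21.4). Hepatocyte replicate 2 was high for Ehd3 (6.06 CPM, the others 1.27 to 1.55) and for the summed monocyte and neutrophil markers (4.89 CPM, the others 2.2 to 2.47). Hepatocyte replicate 4 was high for the summed erythroid and platelet markers (26.5 CPM, the others 16.7 to 18.2).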

How the results depend on the processing

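Other settings left most results in place: of 1160 counts of called genes recomputed under an alternative, 1144 stayed within 1.5 times the reported value. Omitting composition scaling moved the most. Without it, the number of genes higher in hepatocytes was 3174, the genes at least 2-fold higher in LSECs numbered 6507, the members higher in hepatocytes numbered 0 of the caveolae list, 1 of the endothelial regulators, 1 of the endothelial ligands and 2 of the lysosome list, and 3 hepatocyte regulators were higher in LSECs; the 4-fold counts were 4113 and 1932. The values that changed direction under it were 0.05 for Aass, 0.35 for Fabp5, 0.58 for H2-K1, 0.25 for Mcfd2, 0.20 for Pacsin2, 0.14 for Pdgfa, 0.79 for Rab5a, 0.78 for Scarb1, 0.79 for Slc11a2 and 0.49 for Xbp1. With hepatocyte libraries at or above 100 CPM of Malat1 alone, 1 endothelial regulator and 1 endothelial ligand were higher in hepatocytes and Neo1 stood at 0.62. With those under 100 CPM alone, 0 glucose genes and 0 liver isozymes were higher in LSECs (Pfkl lost its call), and 1 antigen presentation gene was higher in hepatocytes. With the 8 libraries alone, 1 Notch gene was higher in hepatocytes. Leaving out 1 library at a time gave 1 to 3 endothelial ligands higher in hepatocytes, 5604 to 5715 genes higher in LSECs and 4764 to 4835 higher in hepatocytes. The replicate block gave 5659 and 4786. Same-numbered LSEC and hepatocyte libraries deviated with correlations of -0.12, 0.04, -0.05 and 0.01. For LSECs and HSCs these were 0.40, 0.54, 0.42 and 0.21, and for hepatocytes and HSCs -0.10, 0.07, -0.01 and 0.02. Whether equal numbers mark 1 mouse is not given by the labels and was not tested. DESeq2 called 5858 and 5299. The cause of these changes was not tested.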
